A study of Mus musculus with 12 samples.

Results

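The genes described here are 10 heat shock proteins and cochaperones of the mouse brain, Hspa1a, Hspa1b, Hspa8, Hsph1, Dnajb1, Bag3, Hsp90aa1, Hspb1, Hspb8 and Cryab. They were taken by gene symbol from a table of 31208 genes, and all 10 were found. The rule uses no measured value, but the list was drawn up with earlier results of these data known. RNA of brain tissue was sequenced as full-length nanopore reads in 12 male C57BL/6 mice of 8 weeks, 4 in each of 3 groups. Sham mice carried no ischemia, and the sources used here do not say whether they received an injection. Vehicle-treated mice received vehicle and lactate-treated mice received lactate into the cerebral ventricle the day before the left middle cerebral artery was occluded, and both were sampled at 6 h of ischemia. The labels say lactate only, while the methods name D-lactate for the sequenced animals. The part of the brain that was sampled is not given in the labels. The labels number the mice of a group without saying how they were kept or operated, so the P values measure the spread between these samples. In bulk tissue, fewer cells of a type and less RNA per cell cannot be told apart.

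Heat shock proteins are chaperones that bind unfolded proteins and keep them from aggregating until they are refolded or degraded. HSP70 proteins hold clients in a cycle of ATP hydrolysis that J-domain proteins such as DNAJB1 start and that exchange factors such as HSP110 and BAG3 reset, HSP90 matures signaling proteins, and small heat shock proteins hold clients without ATP. When unfolded proteins accumulate, heat shock factor 1 is released from chaperones and binds heat shock elements, which are inverted repeats of the letters GAA, in front of the inducible genes. Ischemia is a known inducer of this response in the brain, whereas HSPA8 and HSP90 are abundant in unstressed neurons.

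Values are CPM, the reads of a gene divided by all reads of its mouse and scaled to a common library size, behind which lay 6815920 to 10677224 reads per mouse, so that 3 reads, the limit that a count of 0 allows, correspond to 0.281 to 0.440 CPM. A gene was called when its fold change was at least 1.5 and its edgeR quasi-likelihood P value, adjusted by Benjamini-Hochberg over all genes tested, was under 0.05. Fold changes below are those of the edgeR fit and are given as log2 values with their standard error (SE). The neuron marker sum, which holds Rbfox3, Snap25 and Syt1 among 8 genes, was 4154 to 4320 CPM in sham, 3457 to 5363 CPM in vehicle-treated and 3706 to 4125 CPM in lactate-treated mice, so the defining genes of brain tissue were present in all 12 mice. Vehicle-treated mouse 1 held the highest of these sums, at 5363 CPM, against 3457 to 3791 CPM in the other vehicle-treated mice. Vehicle-treated mouse 2 stood apart by a choroid plexus and ependyma marker sum of 1839 CPM, nearly all of it Ttr, against 2.58 to 6.07 CPM in sham, 5.28 to 16.6 CPM in the other vehicle-treated and 11.6 to 21.1 CPM in lactate-treated mice. Calls with vehicle compared with sham that change without one of these mice are given without it as well.

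The DNA in front of 4 of the 5 members that were called in both comparisons with sham is shown first, since heat shock elements lie there. The fifth, Dnajb1, held no match to the letters searched and is not shown. RefSeq windows on GRCm38.p6, reaching from 250 bases before a transcription start to 50 bases after it, were found for 7 of the 10 members, and Cryab, Hspa8 and Hsp90aa1 had no entry. The bases before the start are written 5′ to 3′ on the strand of the gene, and capitals mark matches to GAANNTTC or TTCNNGAA, each of which is its own reverse complement.
Hspa1a, chr17:34972157-34972406, minus strand: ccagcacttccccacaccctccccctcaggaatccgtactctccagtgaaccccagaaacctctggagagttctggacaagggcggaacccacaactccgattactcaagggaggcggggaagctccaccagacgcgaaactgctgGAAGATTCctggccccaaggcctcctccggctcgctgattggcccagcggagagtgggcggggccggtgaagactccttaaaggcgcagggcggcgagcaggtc
Hspa1b, chr17:34959239-34959488, minus strand: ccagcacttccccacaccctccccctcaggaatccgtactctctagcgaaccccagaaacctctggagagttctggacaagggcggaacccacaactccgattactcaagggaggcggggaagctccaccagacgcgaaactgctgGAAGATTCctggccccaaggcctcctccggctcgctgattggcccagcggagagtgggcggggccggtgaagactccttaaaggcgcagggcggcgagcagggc
Hspb1, chr5:135887669-135887918, plus strand: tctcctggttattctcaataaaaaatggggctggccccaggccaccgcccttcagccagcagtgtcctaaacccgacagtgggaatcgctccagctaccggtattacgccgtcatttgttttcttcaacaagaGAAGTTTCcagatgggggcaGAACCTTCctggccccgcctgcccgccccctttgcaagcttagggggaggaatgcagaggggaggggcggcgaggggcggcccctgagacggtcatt
Hsph1, chr5:149636337-149636586, minus strand: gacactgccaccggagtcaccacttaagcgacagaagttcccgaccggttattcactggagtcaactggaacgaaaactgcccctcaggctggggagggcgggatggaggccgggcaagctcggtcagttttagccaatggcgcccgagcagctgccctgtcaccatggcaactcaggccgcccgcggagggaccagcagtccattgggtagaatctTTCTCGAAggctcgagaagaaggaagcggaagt
The windows of Hspa1a and Hspa1b each held GAAGATTC at 104 bases before the start. Hspb1 held GAAGTTTC at 117 bases and GAACCTTC at 97 bases before the start. Hsph1, for which RefSeq lists more than 1 start, held TTCTCGAA at 33 bases before the start shown.

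Further matches lay after the start, where only short stretches are printed to show the letters.
Hspb8, chr5:116422847-116422870, minus strand: agccaggaGAAGTTTCtaggctcg
Bag3, chr7:128523617-128523632, plus strand: tgggaccaGAAGTTTC
Hsph1, chr5:149636287-149636308, minus strand: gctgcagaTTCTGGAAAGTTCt
In Hsph1 the capitals spell TTCTGGAAAGTTC, a match to the longer run TTCNNGAANNTTC in which both shorter motifs overlap. In all, 6 of the 7 members with a window held GAANNTTC or TTCNNGAA in at least 1 window, and Dnajb1 held neither. Counted by window, as some members have more than 1, this was 7 of 9 windows. Either shorter motif was found in 15.1% of all 32851 mouse windows of this length, and either longer run, TTCNNGAANNTTC or its reverse complement GAANNTTCNNGAA, in 0.603% of them. A match of letters is a description of the window and not a measured binding site.

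Hspa1a and Hspa1b, the inducible HSP70 genes, showed the widest change against sham of the 10 members, and in both ischemic groups the widest ratio between the highest and the lowest mouse. Both are genes of a single exon on the minus strand of chromosome 17 of GRCm38 (Hspa1a, ENSMUSG00000091971, chr17:34969190-34972156, and Hspa1b, ENSMUSG00000090877, chr17:34956436-34959238), with 9951 bases between them. Hspa1a read 4.35, 5.24, 5.70 and 4.44 CPM in sham mice 1 to 4, where these values rest on 33 to 47 reads. With ischemia it read 9.08, 189, 449 and 123 CPM in vehicle-treated mice 1 to 4 and 25.6, 243, 102 and 26.6 CPM in lactate-treated mice 1 to 4. Every ischemic mouse lay above every sham mouse, but vehicle-treated mouse 1 was only 1.84-fold over the sham mean while vehicle-treated mouse 3 was 91.1-fold over it.

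For Hspa1a the mean was 4.93 ± 0.650 CPM in sham, 193 ± 187 CPM in vehicle-treated and 99.3 ± 102 CPM in lactate-treated mice (mean ± SD, n = 4 each). It rose by a log2 fold change of 5.31 (SE 0.83, edgeR adjusted P = 0.00570) in vehicle-treated and of 4.36 (SE 0.66, adjusted P = 0.00125) in lactate-treated mice compared with sham. These correspond to 39.7-fold and 20.5-fold, and the first fell to 22.3-fold without vehicle-treated mouse 3 and the second to 10.6-fold without lactate-treated mouse 2, both still called. Without vehicle-treated mouse 1 the rise was 52.4-fold, and without vehicle-treated mouse 2 it was 40.2-fold. A predicted gene on the opposite strand, Gm20481, overlaps Hspa1a, named after its values were seen, and held 0 to 1 reads in sham, 1 to 26 in vehicle-treated and 0 to 23 in lactate-treated mice, and the sources used here do not state whether counting used the strand.

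Hspa1b ranked the vehicle-treated mice as Hspa1a did, at a lower count, but in lactate-treated mice its lowest was mouse 4, where that of Hspa1a was mouse 1. It stood at 0.396, 0.223, 1.09 and 0.617 CPM in sham mice, which are 3, 2, 8 and 5 reads, so sham mice 1 and 2 were at or below the limit of 3 reads. Vehicle-treated mice had 1.40, 29.8, 32.4 and 12.6 CPM and lactate-treated mice 4.33, 30.2, 9.23 and 3.13 CPM. The lowest ischemic mouse, vehicle-treated mouse 1, held 15 reads and lay above all sham mice. Hspa1b rose by a log2 fold change of 5.06 (SE 0.84, edgeR adjusted P = 0.00856) with vehicle and of 4.37 (SE 0.76, adjusted P = 0.00310) with lactate compared with sham. The first call was lost without sham mouse 2 (adjusted P = 0.0519), and the lactate value of 20.7-fold fell to 9.80-fold without lactate-treated mouse 2. With vehicle it was 33.4-fold, and 44.1-fold or 27.2-fold without vehicle-treated mouse 1 or mouse 2, both called.

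The reads of this pair may be hard to assign to one gene, which was not tested. Their annotated transcripts, of 2967 and 2803 bases, aligned over 2498 bases, of which 2412 (96.6%) were identical. Their annotated reading frames, of 1923 and 1926 bases, differ at 8 of 1923 aligned bases, and their RefSeq windows differ at 4 of 300 bases, 3 of them in the 250 bases before the start that are printed above and 1 in the 50 bases after it, which are not printed. Counted from 1 at the 5′ end of the window, the substitutions from Hspa1a to Hspa1b are C44T, T47C, T249G and C276T. Hspa1a took 84.0% to 95.9% of the reads of the pair in sham, 86.4% to 93.3% in vehicle-treated and 85.5% to 91.7% in lactate-treated mice, so the ranges overlapped. With both genes summed to 1 feature, the pair rose 39.1-fold with vehicle (edgeR adjusted P = 0.00507) and 20.5-fold with lactate (adjusted P = 0.00116) compared with sham.

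**Figure D1:**
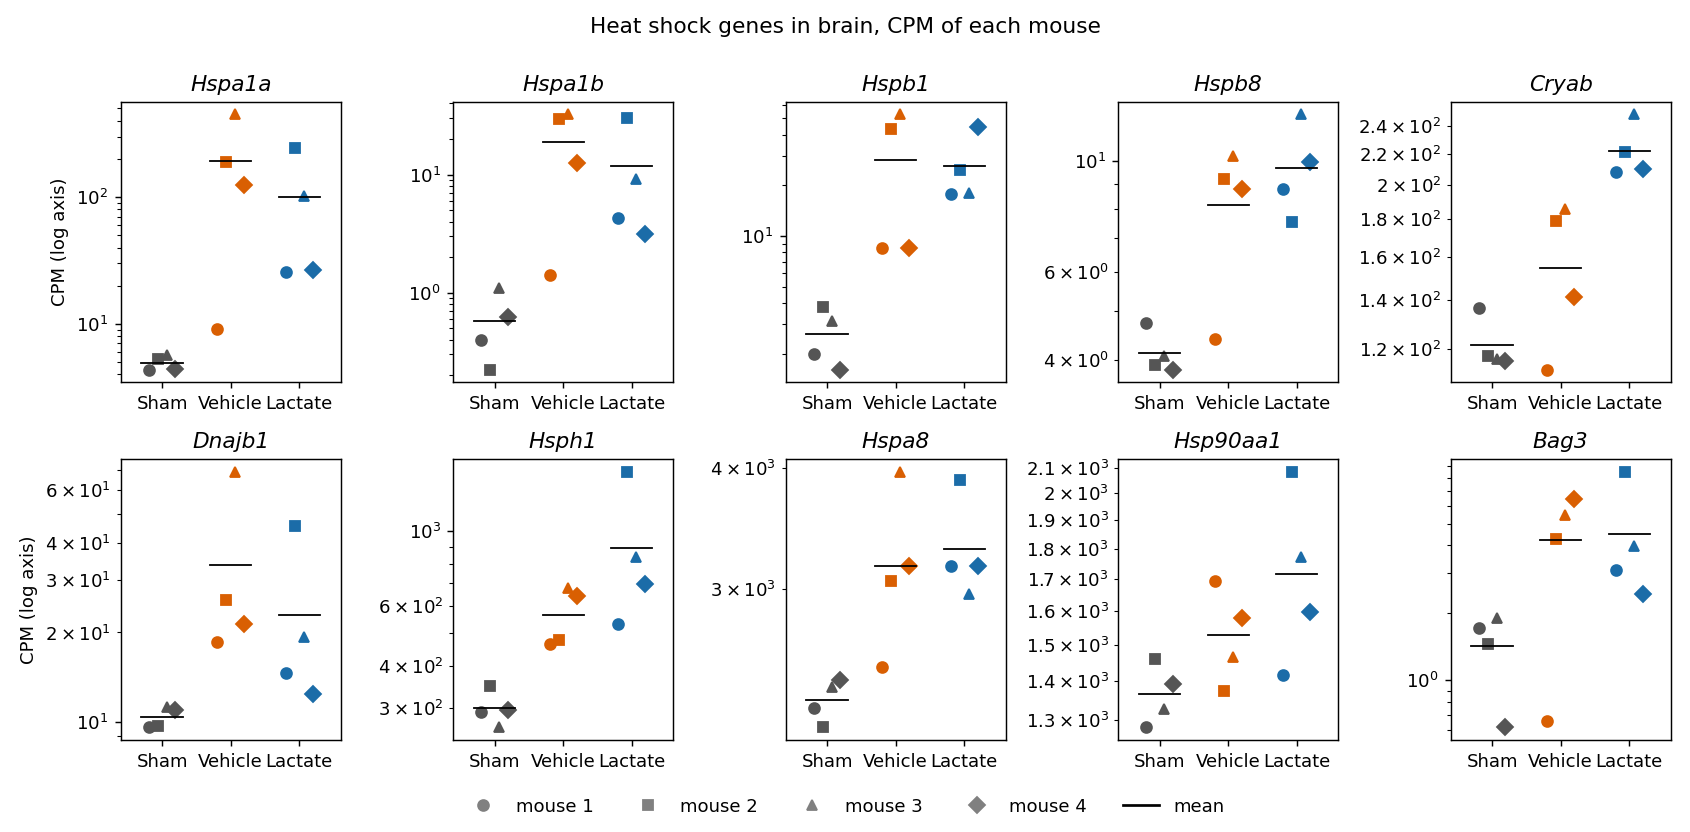
CPM of each of the 10 genes in the 12 mice, 1 panel per gene, on a log axis, with the mouse number shown by marker shape and a bar at the group mean. Hspa1a ran from 9.08 to 449 CPM among vehicle-treated mice, whereas the sham mice of Hspa1a lay between 4.35 and 5.70 CPM.

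Hspa8 encodes the constitutive HSC70 and was high in every mouse. It lies on the plus strand of chromosome 9 (ENSMUSG00000015656, chr9:40800984-40810087) and hosts small nucleolar RNAs in its introns. Sham mice 1 to 4 had 2255, 2152, 2368 and 2409 CPM, vehicle-treated mice 2487, 3057, 3966 and 3164 CPM, and lactate-treated mice 3165, 3891, 2960.0 and 3168 CPM. All ischemic mice lay above all sham mice, vehicle-treated mouse 1 by the smallest margin. The log2 fold change was 0.50 (SE 0.13, edgeR adjusted P = 0.0895) with vehicle, which was not called, and without vehicle-treated mouse 1 it was 0.60 and called (adjusted P = 0.0105). With lactate it was 0.55 (SE 0.09, adjusted P = 0.00229), a 1.47-fold rise that stayed under the fold limit of 1.5, and it passed at 1.52-fold without lactate-treated mouse 3.

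Hsph1 encodes HSP110, the exchange factor that releases ADP from HSP70. It lies on the minus strand of chromosome 5 (ENSMUSG00000029657, chr5:149614287-149636376). In sham mice it read 292, 347, 263 and 296 CPM, in vehicle-treated mice 462, 475, 678 and 645 CPM, and in lactate-treated mice 533, 1497, 837 and 696 CPM. No ischemic mouse overlapped a sham mouse, and lactate-treated mouse 2 was far above its group. Hsph1 rose 1.93-fold with vehicle (log2 0.95, SE 0.15, edgeR adjusted P = 0.00716) and 3.03-fold with lactate (log2 1.60, SE 0.24, adjusted P = 0.00137) compared with sham. In a single fit of all 12 mice with a shared spread, the rise with vehicle was not called (adjusted P = 0.0687).

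Dnajb1 encodes the J-domain protein that starts the HSP70 cycle in the cytosol, and lies on the plus strand of chromosome 8 (ENSMUSG00000005483, chr8:83608193-83612653). Sham mice 1 to 4 had 9.63, 9.70, 11.3 and 11.0 CPM, vehicle-treated mice 18.5, 25.6, 69.0 and 21.3 CPM, and lactate-treated mice 14.6, 45.4, 19.4 and 12.4 CPM. The groups did not overlap with sham, and a single mouse stood high in each ischemic group, mouse 3 with vehicle and mouse 2 with lactate. Dnajb1 rose 3.30-fold with vehicle (log2 1.72, SE 0.36, edgeR adjusted P = 0.0335) and 2.26-fold with lactate (log2 1.17, SE 0.34, adjusted P = 0.0371) compared with sham. Both calls were close to the threshold. The call with vehicle was lost without any 1 sham mouse or without vehicle-treated mouse 2, with adjusted P values of 0.0525 to 0.123, and in 1 fit of all 12 mice (adjusted P = 0.0597), and the rise was 2.16-fold without vehicle-treated mouse 3. The call with lactate was lost without any 1 sham mouse or without lactate-treated mouse 2 or 3, with adjusted P values of 0.0534 to 0.0919, and also with limma voom (adjusted P = 0.0773) and in 1 fit of all 12 mice (adjusted P = 0.102).

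Bag3 encodes a cochaperone that couples HSP70 and small heat shock proteins to selective autophagy, and lies on the plus strand of chromosome 7 (ENSMUSG00000030847, chr7:128523616-128546981). Its counts were low, with 13, 13, 14 and 5 reads in sham mice, 7, 33, 44 and 44 in vehicle-treated mice and 23, 71, 30 and 21 in lactate-treated mice. Scaled to depth, sham mice had 1.71, 1.45, 1.90 and 0.617 CPM, vehicle-treated mice 0.656, 4.27, 5.48 and 6.46 CPM, and lactate-treated mice 3.11, 8.50, 3.96 and 2.43 CPM. Vehicle-treated mouse 1 lay within the sham range, while the other 7 ischemic mice lay above it. The log2 fold change with vehicle was 1.57 (SE 0.56, edgeR adjusted P = 0.238), not called with all 4 mice and called without mouse 1 (1.96, adjusted P = 0.0132). With lactate Bag3 rose 3.24-fold (log2 1.70, SE 0.43, adjusted P = 0.0215), a call lost without lactate-treated mouse 2 (adjusted P = 0.0611) or sham mouse 4 (adjusted P = 0.0615), and in 1 fit of all 12 mice (adjusted P = 0.0743).

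Hsp90aa1, the stress-responsive HSP90 gene of the cytosol, changed least of the 10 genes against sham by fold. It lies on the minus strand of chromosome 12 (ENSMUSG00000021270, chr12:110690605-110702728). Sham mice had 1283, 1459, 1328 and 1394 CPM, vehicle-treated mice 1694, 1375, 1467 and 1579.5 CPM, and lactate-treated mice 1418, 2083, 1773 and 1595 CPM. Both ischemic groups overlapped with sham, by vehicle-treated mouse 2 and by lactate-treated mouse 1. The log2 fold change was 0.20 (SE 0.11, edgeR adjusted P = 0.455) with vehicle and 0.36 (SE 0.11, adjusted P = 0.0520) with lactate, and neither was called. The 95% intervals of the fold were 0.975 to 1.35 with vehicle and 1.09 to 1.51 with lactate.

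Hspb1 encodes HSP25, the mouse form of HSP27, a small heat shock protein that also binds actin. It lies on the plus strand of chromosome 5 (ENSMUSG00000004951, chr5:135887919-135889563). Sham mice had 1.98, 3.79, 3.12 and 1.60 CPM, from 13 to 34 reads, vehicle-treated mice 8.52, 43.4, 52.8 and 8.51 CPM, and lactate-treated mice 17.8, 24.8, 17.9 and 44.2 CPM. All 8 ischemic mice lay above the sham mice, and the vehicle-treated mice fell into a low pair, mice 1 and 4, and a high pair, mice 2 and 3. Hspb1 rose 10.9-fold with vehicle (log2 3.44, SE 0.60, edgeR adjusted P = 0.0131) and 10.1-fold with lactate (log2 3.33, SE 0.35, adjusted P = 5.99e-05) compared with sham. The call with vehicle was lost without sham mouse 1, 3 or 4, with adjusted P values of 0.0533 to 0.0596. Without vehicle-treated mouse 2 it held, at 8.98-fold (adjusted P = 0.0397).

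Hspb8, a small heat shock protein that forms a complex with BAG3, lies on the minus strand of chromosome 5 (ENSMUSG00000041548, chr5:116408491-116422864). Sham mice had 4.75, 3.90, 4.07 and 3.82 CPM, vehicle-treated mice 4.40, 9.19, 10.2 and 8.80 CPM, and lactate-treated mice 8.79, 7.54, 12.4 and 9.97 CPM. As for Bag3, vehicle-treated mouse 1 alone among the ischemic mice lay within the sham range. The log2 fold change with vehicle was 1.00 (SE 0.27, edgeR adjusted P = 0.111), not called, and 1.22 without mouse 1, which was called (adjusted P = 0.00889). With all 4 mice it was called by the other tools, at an adjusted P of 0.0364 with DESeq2 and 0.0172 with limma voom. With lactate Hspb8 rose 2.39-fold (log2 1.25, SE 0.21, edgeR adjusted P = 0.00227).

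Cryab encodes alpha-B-crystallin, a small heat shock protein that oligodendrocytes and astrocytes also make without stress. It lies on the plus strand of chromosome 9 (ENSMUSG00000032060, chr9:50751325-50756636), where it overlaps Hspb2 on the opposite strand, which held at most 9 reads in any mouse. Sham mice had 136, 118, 116 and 116 CPM, vehicle-treated mice 113, 179, 185 and 141 CPM, and lactate-treated mice 208, 221, 249 and 210.1 CPM. Every lactate-treated mouse lay above every vehicle-treated and every sham mouse, while vehicle-treated mouse 1 lay below all sham mice. With vehicle the log2 fold change was 0.38 (SE 0.16, edgeR adjusted P = 0.311), and with lactate Cryab rose 1.87-fold (log2 0.90, SE 0.10, adjusted P = 7.67e-05) compared with sham. The oligodendrocyte marker sum was 6906 to 11041 CPM in sham, 5464 to 10294 CPM in vehicle-treated and 8725 to 9800 CPM in lactate-treated mice. The astrocyte sum was 560 to 841, 644 to 790 and 665 to 822 CPM in the same order, so both sums overlapped across groups. Single markers were called with lactate compared with sham all the same, the astrocyte gene Gjb6 higher (log2 0.91) and the oligodendrocyte gene Mog lower (-0.60).

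Counted over the 10 genes, 5 rose with vehicle compared with sham, namely Hspa1a, Hspa1b, Hspb1, Dnajb1 and Hsph1, and 0 fell, where 1.29% of all 17019 genes tested were called higher and 0.182% lower. With lactate compared with sham, 8 rose, the same 5 with Hspb8, Cryab and Bag3, and 0 fell, where 7.88% of 17262 genes tested were called higher and 2.51% lower. By an unadjusted P under 0.05 with the same fold limit, 7 of the 10 were higher with vehicle, where 6.5% of all genes were, and 8 with lactate, where 11.9% were. Hspa8 passed the adjusted P value at any fold as well, which 8.76% of all genes did upward. The count of calls with vehicle was 8 without vehicle-treated mouse 1, a fit that called 1.74% of all genes higher, and 3 without any 1 sham mouse, fits that called 0.633% to 0.694%. With lactate, leaving out 1 mouse gave 6 to 8 calls, in fits that called 5.27% to 7.59% of all genes higher. The median log2 fold change of the 10 genes was 1.29 with vehicle and 1.43 with lactate, against medians of 0.0031 and -0.03 over all genes tested. All vehicle-treated mice lay above all sham mice in 6 of the 10 genes, where 4.14% of all genes did so, and all lactate-treated mice in 9 of the 10, where 10.4% of all genes did so. Both comparisons share the 4 sham mice, so their values stand side by side and are not independent of each other.

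**Figure D2:**
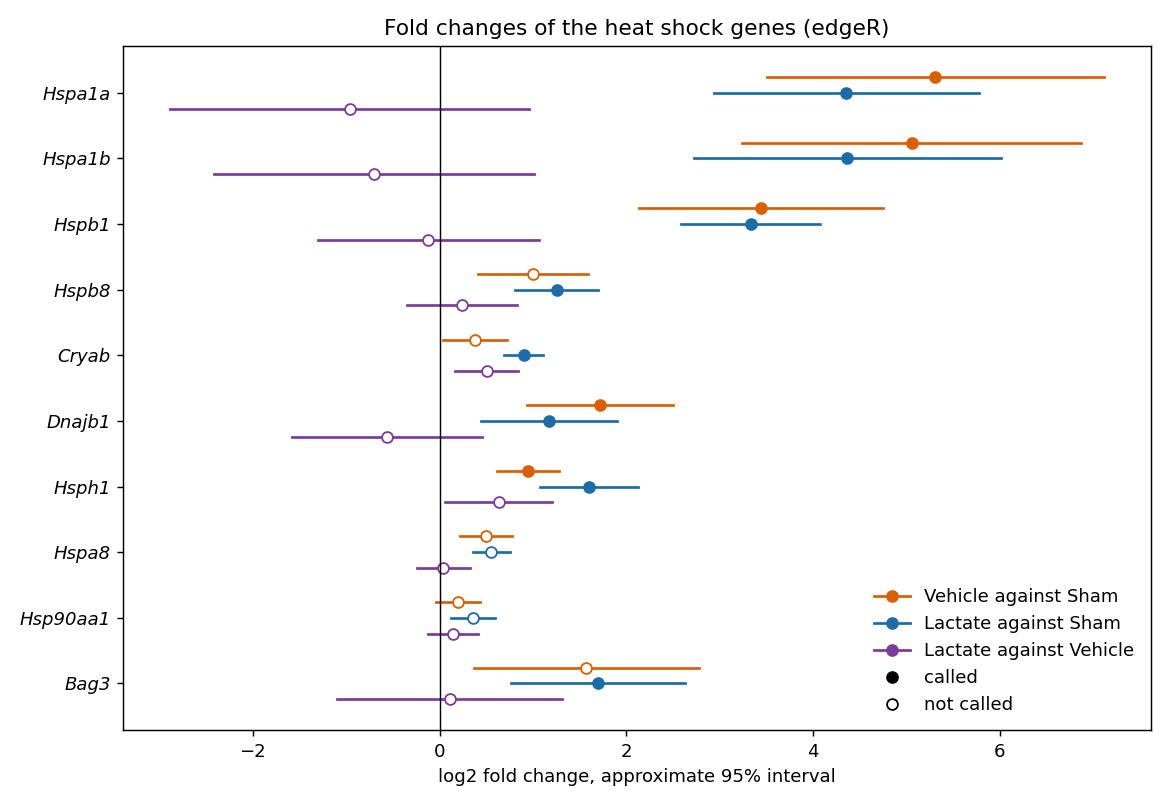
Log2 fold change of each gene from the edgeR fit with its 95% interval, for vehicle against sham, lactate against sham and lactate against vehicle, with filled points for called genes. All 10 points lie above 0 in both comparisons with sham, whereas lactate against vehicle runs from -0.96 for Hspa1a to 0.64 for Hsph1 with no filled point.

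Lactate-treated and vehicle-treated mice were then compared to ask what lactate added to the response at 6 h of ischemia. None of the 10 genes was called by the edgeR test (0 of 10), 0 were called by DESeq2 or limma voom, and 2, Cryab and Hsph1, had an unadjusted P under 0.05 at any fold, where 8.84% of all genes tested did. Over all 17419 genes tested, 0% were called higher and 0.00574% lower, and 3.76% were higher at an unadjusted P under 0.05 with a fold of at least 1.5, which only Hsph1 reached among the 10. Cryab was 1.42-fold higher with lactate (95% interval 1.12 to 1.79, edgeR adjusted P = 0.481), and it was the 1 gene of the 10 whose groups did not overlap, where 2.99% of all genes had every lactate-treated mouse above every vehicle-treated one. Hsph1 was 1.55-fold higher (95% interval 1.04 to 2.31, edgeR adjusted P = 0.536), and vehicle-treated mice 3 and 4 lay within its lactate-treated range.

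The intervals were wide for the strongly induced genes. Hspa1a in lactate-treated mice was at 0.513-fold of vehicle-treated mice, with a 95% interval of 0.135 to 1.94 (edgeR adjusted P = 0.778), and at 0.265-fold without lactate-treated mouse 2 or 0.915-fold without vehicle-treated mouse 3. For Hspa1b the ratio was 0.614 (interval 0.187 to 2.02, adjusted P = 0.823), and 0.291 without lactate-treated mouse 2. Hspb1 had a ratio of 0.920 (0.405 to 2.09), Dnajb1 of 0.678 (0.336 to 1.37) and Bag3 of 1.08 (0.468 to 2.49), and without vehicle-treated mouse 3 the ratio of Dnajb1 was 1.03. The direction of Hspb1, Hspa8 and Bag3 also turned under alternatives given in the closing section. The abundant genes were bounded more closely, Hspa8 at 1.03 (0.845 to 1.25) and Hsp90aa1 at 1.11 (0.918 to 1.33), and Hspb8 was at 1.18 (0.783 to 1.77). These intervals leave room for a difference of either sign in each of these 8 genes.

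The mice of a treatment differed, more so in some of the 10 genes than in others. Over genes with a mean of at least 5 CPM, vehicle-treated mouse 1 stood apart from its group. Its chi-square per degree of freedom was 46.4 to 53.3 against each other vehicle-treated mouse, where the other vehicle-treated pairs gave 20.4 to 22.8. Its distance is thus not particular to the 10 genes. This statistic is taken on counts and grows with read depth, and vehicle-treated mouse 1 had the deepest library, at 10677224 reads. Among vehicle-treated mice, Hspa1a differed 49.5-fold between the lowest and the highest mouse, and among lactate-treated mice 9.52-fold. Vehicle-treated mouse 3 was the highest of its group in 8 of the 10 genes, all but Hsp90aa1 and Bag3, and vehicle-treated mouse 1 the lowest in 8, all but Hsp90aa1 and Hspb1. Lactate-treated mouse 2 was the highest of its group in 7 genes, with Hspb1, Hspb8 and Cryab as the exceptions. Taking each mouse as a fold over the sham mean, the median over the 10 genes was 1.39, 2.35, 3.16 and 2.14 in vehicle-treated mice 1 to 4 and 1.95, 4.68, 2.79 and 2.03 in lactate-treated mice 1 to 4. Of the 10 genes, 2 were more than 2-fold over the sham mean in vehicle-treated mouse 1, against 6, 7 and 7 in vehicle-treated mice 2 to 4. The coefficient of variation of Hspa1a was 13.2% in sham, 96.8% in vehicle-treated and 103% in lactate-treated mice, while that of Hsp90aa1 was 5.64%, 9.04% and 16.5%. Hspa1b, at 2 to 8 reads in sham, was already at 64.4% there, against 77.0% with vehicle and 107% with lactate. Bag3 was at 39.9%, 60.1% and 60.9%, and Hsph1 at 11.7%, 19.9% and 47.5%.

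**Figure D3:**
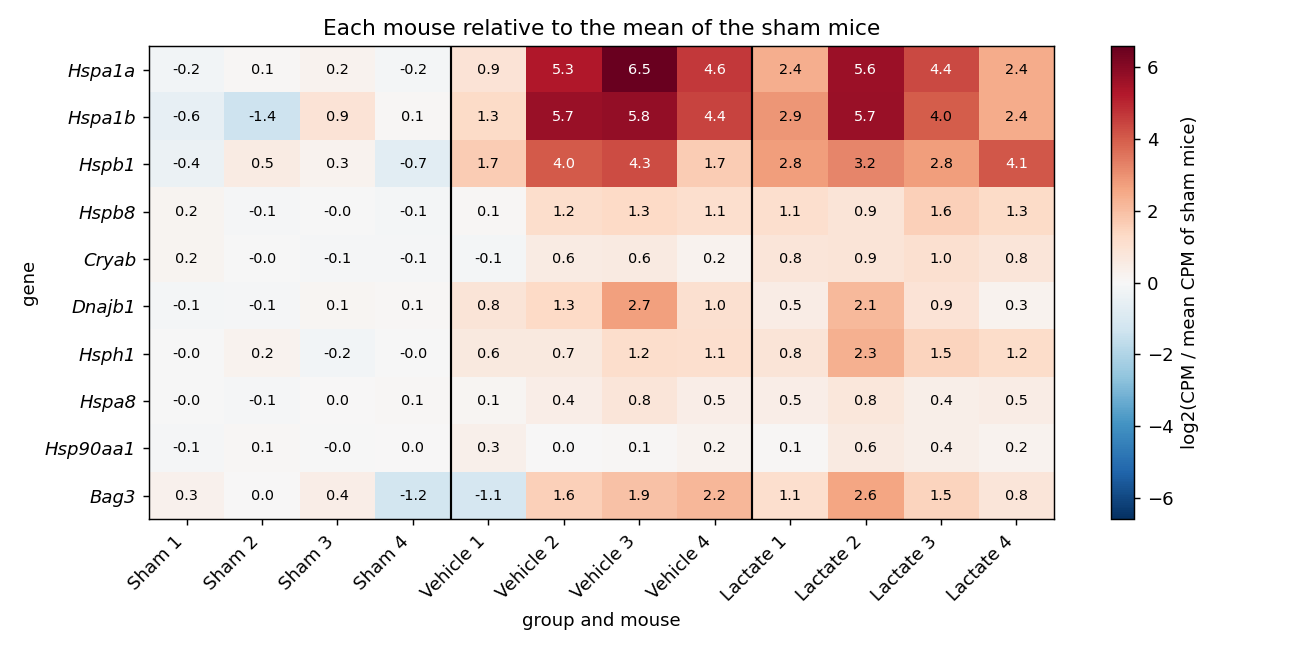
Fold over the sham mean, as a log2 color scale, of the 10 genes in rows and the 12 mice in columns. Vehicle-treated mouse 1 is paler than the other vehicle-treated mice, with 2 of 10 genes more than 2-fold over the sham mean. Lactate-treated mouse 2 has the highest median, at 4.68-fold, while the deepest single cell is Hspa1a in vehicle-treated mouse 3, at 91.1-fold.

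Markers of other cell types were set beside these values. The neutrophil marker sum was 3.23 to 7.91 CPM in sham mice, 16.1, 57.8, 76.3 and 12.6 CPM in vehicle-treated mice 1 to 4 and 27.2, 25.5, 44.3 and 21.1 CPM in lactate-treated mice 1 to 4. S100a8 and S100a9, neutrophil granule proteins, rose among the 4 markers tested with vehicle, and with Retnlg among the 5 tested with lactate. Retnlg stood at 0 reads in 3 sham mice and S100a9 in 2. The other markers tested were not called. With vehicle the log2 fold change was above 0 in 3 of the 4, the lowest being -0.97. With lactate it was above 0 in 3 of the 5, the lowest being -0.28. Cxcr2 read 2.23 to 3.21 CPM in sham and 1.22 to 3.13 CPM in lactate-treated mice, and Csf3r 0.111 to 2.72 and 1.16 to 2.43 CPM. Vehicle-treated mice 2 and 3 held both the highest neutrophil sums and the highest Hspa1a, Hspa1b and Hspb1 of their group. Lactate-treated mouse 3 held the highest neutrophil sum of its group, and lactate-treated mouse 2 the highest Hspa1a. Lactate-treated mouse 4 held the lowest neutrophil sum of its group and the highest Hspb1, at 44.2 CPM. The neuron sums given above lay lower in every lactate-treated mouse than in every sham mouse, as they did in vehicle-treated mice 2 to 4, although 0 of the 8 neuron genes were called in either comparison (edgeR). The choroid plexus and ependyma sums lay higher in every lactate-treated mouse than in every sham mouse, with Ttr, at 7.78 to 16.2 CPM against 0.815 to 2.90 CPM, the 1 gene called of the 2 tested. The part of these cell types in the rise of the heat shock genes was not tested. Microglia markers summed to 219 to 237 CPM in sham, 134 to 213 in vehicle-treated and 211 to 232 in lactate-treated mice, and endothelial markers to 154 to 160, 133 to 185 and 172 to 220 CPM. Mural markers were 44.8 to 56.4, 31.8 to 47.7 and 36.4 to 42.3 CPM, and red blood cell genes 560 to 633, 333 to 500 and 375 to 499 CPM in the same order. Within these sums single genes were called in edgeR. Compared with sham, the microglia genes P2ry12 and Cx3cr1 were lower with vehicle. With lactate P2ry12, the endothelial gene Slco1a4 and the red blood cell gene Hbb-bt were lower, and the endothelial gene Ly6c1 was higher.

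The wider chaperone network was described with 8 lists that hold 102 other genes of the table. With vehicle compared with sham, 1 of 97 tested genes was called, Hspa5, the HSP70 of the endoplasmic reticulum (ER), which went from 127 ± 30.4 to 263 ± 65.6 CPM (mean ± SD, n = 4, log2 1.09, SE 0.21, edgeR adjusted P = 0.0227). Over all genes tested 1.29% were called higher in that comparison, so 1 of 97 is near this background. The Hspa5 call was lost in 6 of 8 fits that left out 1 mouse, namely vehicle-treated mouse 2, 3 or 4 or sham mouse 1, 2 or 3, with adjusted P values of 0.0526 to 0.0945 and folds of 1.98 to 2.24, and it held without vehicle-treated mouse 1 or sham mouse 4. Without vehicle-treated mouse 1, Serpinh1 (log2 0.94, edgeR adjusted P = 0.0195) and Dnaja1 (0.66, adjusted P = 0.0241) were called too. With lactate compared with sham, where 7.88% of all genes were called higher, 18 of 95 tested genes rose and 0 fell, and 12 of these 18 were among the 16 ER chaperones. Of these 12, named for this loss, Dnajb11 fell under the fold limit without lactate-treated mouse 1, 2 or 4 or sham mouse 1, and also with limma voom, without TMM factors or without the filter on low counts (1.42-fold to 1.49-fold), and Dnajc3 was lost without sham mouse 1 (edgeR adjusted P = 0.0509). The ER genes with the widest change were Sdf2l1, a partner of ER J-domain proteins, at a log2 fold change of 2.12, Serpinh1, the collagen chaperone HSP47, at 1.82, Hspa5 at 1.40 and Manf, an ER-stress-induced factor, at 1.29. The median over the ER list was 0.92 with lactate and 0.39 with vehicle. Serpinh1, for example, read 17.8 ± 0.508 CPM in sham, 27.9 ± 13.2 CPM in vehicle-treated and 61.5 ± 11.4 CPM in lactate-treated mice.

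Outside the ER, 6 cytosolic and mitochondrial chaperone genes were called with lactate compared with sham. The lists outside the ER held 14, 18, 16, 3, 13, 11 and 4 tested genes. The share called over these lists was no higher than the background, the 7.88% of all genes called higher. Among HSP90 and its cochaperones, 3 of 16 rose, Hsp90ab1, the constitutive HSP90 (log2 0.62, edgeR adjusted P = 0.000938), Stip1, which links HSP70 to HSP90 (0.85, adjusted P = 0.000276), and Chordc1, an HSP90 cochaperone (0.84, adjusted P = 0.00190). Among J-domain proteins 1 of 18 rose, a share below that background, Dnaja1 (0.87, adjusted P = 0.00208), from 502 ± 67.8 CPM in sham to 896 ± 198 CPM in lactate-treated mice. Of the 11 mitochondrial chaperones, Hspd1 (0.65, adjusted P = 0.00822) and Hspe1 (0.84, adjusted P = 0.00431), which form the HSP60 folding chamber and its lid, rose. Without lactate-treated mouse 2, Hsp90ab1 (1.48-fold) and Hspd1 (1.43-fold) fell under the fold limit, as Hsp90ab1 did without the filter on low counts (1.49-fold). No gene was called among the 14 other cytosolic HSP70 and exchange factor genes tested, the 13 subunits of the TRiC chaperonin and prefoldin, or the 3 other small heat shock proteins tested (edgeR). The counts with an unadjusted P under 0.05 and a fold of at least 1.5 in these 3 lists were 0, 0 and 2, and the 2, named after their values were seen, went opposite ways, Hspb6 at a log2 fold change of 0.70 and Hspb3 at -0.72. The transcripts of the heat shock factors were not called either, with Hsf1 at a log2 fold change of 0.12 (SE 0.19).

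Between lactate-treated and vehicle-treated mice, 0 of the 96 list genes tested were called by edgeR or limma voom, 6 were called by DESeq2, which called 0.333% of all genes tested in either direction, and 17 had an unadjusted P under 0.05 at any fold, where 8.84% of all genes tested did. The 6 genes called by DESeq2 were Chordc1, Stip1, Pdia6, Pdia4, Sdf2l1 and Manf, all higher with lactate, with log2 fold changes of 0.70 to 1.25. In edgeR, with an unadjusted P under 0.05 and a fold of at least 1.5, 7 were higher, where 3.76% of all genes were, and 1 lower, where 2.47% were. Chordc1 had the smallest of these P values (log2 1.24, edgeR adjusted P = 0.265, DESeq2 adjusted P = 0.000199) and read 99.1 ± 17.2 CPM in sham, 72.8 ± 22.4 CPM in vehicle-treated and 174 ± 22.4 CPM in lactate-treated mice.

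**Figure D4:**
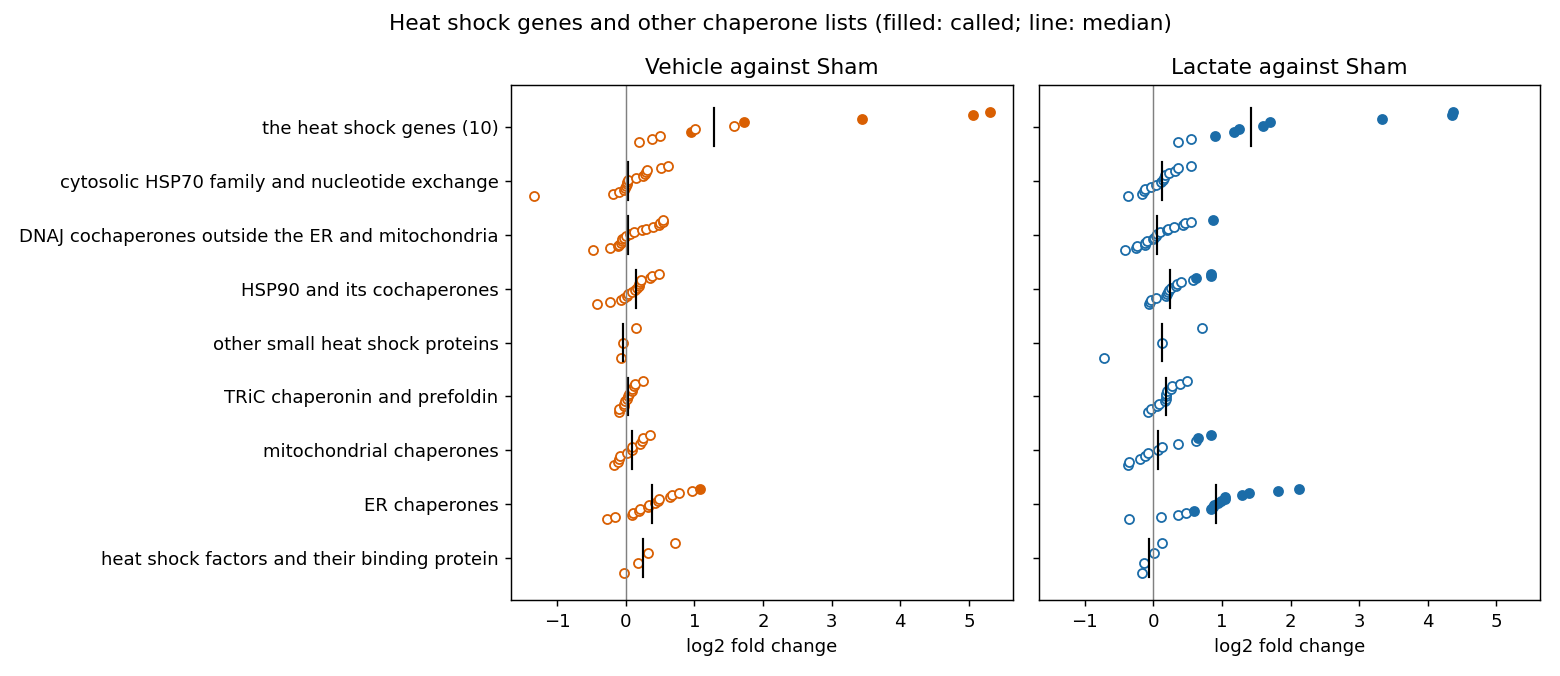
Log2 fold change of every tested gene of the 10 members and of the 8 other chaperone lists, in vehicle against sham and in lactate against sham. A line marks each list's median, and filled points are called genes. The ER list is the one with 12 called genes in lactate against sham, and its median there is 0.92.

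Lastly, the genes outside the chaperones whose levels ran closest to those of Hspa1a and Hspa1b summed were sought over the 12 mice. Likeness was the root mean square difference between log2(CPM + 1) values, each centered on its mean, among 9473 genes with a mean of at least 5 CPM. The nearest 5 were Atf3, a stress-induced transcription factor (0.89), Cd14, a lipopolysaccharide coreceptor of myeloid cells (0.91), Tmem252 (1.11), Olfr1033, of a large family of similar genes (1.15), and S100a8 (1.15), where the median gene lay at 2.33. A gene with the same level in all 12 mice would lie at 2.30, so the median gene is near no change. Atf3 read 0.659, 0, 1.22 and 0 CPM in sham mice 1 to 4, 2.25, 18.6, 46.2 and 6.75 CPM in vehicle-treated mice 1 to 4 and 1.35, 15.4, 8.04 and 0.696 CPM in lactate-treated mice 1 to 4. Its lactate-treated mouse 4 lay within the sham range, and a level of 0 allows up to 3 reads. Cd14 had 7.87, 39.1, 61.1 and 18.2 CPM and 15.6, 38.0, 25.1 and 17.5 CPM in the same ischemic mice. The genes were chosen for this likeness, so mice that are highest in both are built into the choice, and S100a8 differed in that its highest lactate-treated mouse was mouse 3. All 5 lay under 5 CPM in every sham mouse and passed the filter on the mean only through the ischemic groups. All 12 points share tissue, treatment and depth with Hspa1a, so this likeness is a description and carries no P value.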

How the data were processed

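Full-length cDNA of brain RNA, amplified by PCR, was sequenced on a nanopore PromethION. Per the study's methods, short, low-quality and ribosomal reads were removed, reads were mapped with minimap2, isoforms were polished with pinfish and compared with known transcripts by gffcompare. The submitters' processing notes name GRCm38 and DESeq 1.10.1. The deposited count values are whole reads per gene, not normalized, and the rule of counting, strand included, is not given in the sources used here. The authors divided each count by its mouse's total to give CPM, and recomputing these gave the same values within 4.75e-06 CPM. Columns of the authors' own fold changes and P values were not used, and 0 per-sample columns lacked a sample. Left out were 4 lines without a gene, and 27 symbols held as dates were restored.

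Genes that reached 1 CPM in 4 or more of the 8 mice of a comparison entered a quasi-likelihood fit of those 2 groups (edgeR 4.0.16 under R 4.3.3, TMM factors), and SEs and intervals were derived from its F statistic. The code was tested on simulated counts. Alternatives used DESeq2 1.42.0, limma 3.58.1, other scalings, filters and gene models, a replicate block and leaving out each mouse. Total reads per mouse were 6815920 to 10677224, and limits of 3 reads cover counting error only, since reads carried no molecular identifiers. Positions are from GENCODE M21 on GRCm38, and promoter windows from RefSeq. Named were all 10 members, each called gene of a chaperone list or its 4 with the largest change where over 6 were called, and the 5 nearest profiles. Members and lists were chosen with earlier results of these data known. Python 3.11.15, numpy 2.4.6, pandas 2.3.3, matplotlib 3.10.9 and Biopython 1.88 served for tables, figures and alignments.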

Additional observations from a re-analysis of the deposited data

Results flagged for a closer look

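In 30 groups of 4 mice, 1 per gene and group, the highest and lowest mouse were set against the others by Dixon's ratio of gap to range at its 95% critical value, and 2 mice stood apart, where chance gives about 1 in 20 groups. Cryab in sham mouse 1 was at 136 CPM, above the other sham mice at 116 to 118 CPM, with a ratio of 0.907. Dnajb1 in vehicle-treated mouse 3 was at 69.0 CPM, above the other vehicle-treated mice at 18.5 to 25.6 CPM, with a ratio of 0.859.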

How the results depend on the processing

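Over the alternatives run, no fold change of the 10 genes changed sign in either comparison with sham. The number of the 10 called with vehicle compared with sham was 5, and became 3 in 1 fit of all 12 mice and 3 to 8 when 1 mouse was left out (8 without vehicle-treated mouse 1, 3 without any 1 sham mouse), and with lactate compared with sham it was 8, and became 6 to 8 without 1 mouse, 6 in 1 fit of all 12 mice, 7 with limma voom and 9 with only genes that have an Ensembl identifier. In the chaperone lists the 1 gene called with vehicle became 2 with DESeq2, 6 by unadjusted P and 0 to 3 when 1 mouse was left out (3 without vehicle-treated mouse 1, and 0, with Hspa5 lost, without vehicle-treated mouse 2, 3 or 4 or sham mouse 1, 2 or 3). Between lactate and vehicle, the count of the 10 genes went from 0 to 1 by unadjusted P, and that of the lists from 0 to 6 with DESeq2 and 8 by unadjusted P. The mouse numbers did not pair the samples, with same-number correlations of -0.21 to 0.20, 3 of 12 over 0.1, and 4 of 12 mice correlating best with their own number. With the replicate block 5, 8 and 0 of the 10 genes were called in the 3 comparisons. Between lactate and vehicle some log2 fold changes, none called, turned sign, and the cause was not tested. Hspb1 was -0.12, 0.18 with the replicate block and -0.49 to 0.36 without 1 mouse. Dnajb1 was -0.56 and -1.13 to 0.049 without 1 mouse. Hspa8 was 0.04, -0.066 with limma voom and -0.053 to 0.16 without 1 mouse. Bag3 was 0.11, -0.23 with limma voom and -0.40 to 0.39 without 1 mouse. Reads limit Hspa1b and Bag3 in sham mice, at 2 to 8 and 5 to 14 reads.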

Other observations

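The table also holds loci that match no reference gene, of which 6 were annotated by the authors to a heat shock protein and 3 of these to a member, Hsph1, Hsp90aa1 or Hspa8. The locus annotated to Hsph1 read 2.79 to 6.17 CPM in sham, 6.65 to 16.9 CPM in vehicle-treated and 5.14 to 41.1 CPM in lactate-treated mice, and its highest mouse was lactate-treated mouse 2, as it was for Hsph1. The locus annotated to Hspa8 read 135 to 183, 162 to 362 and 201 to 308 CPM in the same groups, and that annotated to Hsp90aa1 85.1 to 136, 79.9 to 181 and 97.1 to 163 CPM. Both of these loci were highest in vehicle-treated mouse 1. That mouse was the lowest ischemic mouse for Hspa8 itself, at 2487 CPM, and Hsp90aa1 itself was highest in lactate-treated mouse 2. Adding the reads of the loci to their genes, an alternative chosen after seeing the data, left 5, 8 and 0 members called in the 3 comparisons.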
